A study of Mus musculus with 4 samples.

Results

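Kupffer nuclei and CD45+ 1 nuclei are 2 immune clusters of a mouse liver single-nucleus RNA-Seq data set, and their transcript counts were compared within the livers of hepatocyte-specific Nampt knockout (HNKO) mice. The members were the nuclei whose deposited cell type label begins with Kup or reads CD45+ 1 and whose genotype is HNKO. There were 64 Kupffer and 91 CD45+ 1 nuclei, together 155 of the 3062 HNKO nuclei and of the 5193 nuclei of all mice. HNKO mouse 1 gave 29 Kupffer and 52 CD45+ 1 nuclei, HNKO mouse 2 gave 10 and 14, and HNKO mouse 3 gave 25 and 25. The mice are numbered by the hashtag that each animal's nuclei carried, and the 3 HNKO mice are the replicates of every comparison.

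The study asked how livers respond when hepatocytes lose Nampt, the enzyme that makes nicotinamide mononucleotide in NAD+ salvage. HNKO mice, Alb-Cre Nampt cKO in the labels, carried Nampt fl/fl alleles and 1 copy of Alb-Cre, and their WT littermates carried the floxed alleles without Cre. All 6 mice were C57BL6/BomTac females, 8 to 12 weeks old at the start, and ate a purified diet for 6 weeks. The albumin promoter drives Cre in hepatocytes, so neither immune cluster is the targeted cell type.

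Kupffer cells are the resident macrophages of the liver and sit in the sinusoids, where they take up blood-borne particles, dying cells and old red cells and return the iron to the circulation. Resident cells carry receptors such as Clec4f, Timd4 and Vsig4, whereas macrophages newly derived from blood monocytes lack some of these. Dendritic cells are the other main antigen-presenting leukocytes of the liver: conventional dendritic cells display peptides on MHC class II, and plasmacytoid dendritic cells are known for interferon production.

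Counts of unique molecular identifiers (UMIs, 1 per captured transcript) were summed per mouse and cluster. The sums held 36972 to 102790 UMIs for Kupffer and 56037 to 186748 for CD45+ 1 nuclei, and HNKO mouse 2 was the shallowest in both. The median nucleus held 3156, 2782 and 3199 UMIs in the Kupffer clusters of HNKO mice 1, 2 and 3, a mean of 3046 ± 229 (SD, n = 3). The CD45+ 1 medians averaged 3200 ± 307 (SD, n = 3), a difference of -154 UMIs that was within the spread between mice (exact sign-flip permutation test, two-sided, p = 0.75; 3 pairs cannot go below 0.25). No mouse stood apart in depth per nucleus. A mouse was assigned by its hashtag, and the own hashtag was the highest in all 29 and 10 Kupffer nuclei of HNKO mice 1 and 2 but in 14 of 25 of HNKO mouse 3. For CD45+ 1 nuclei it was the highest in 52 of 52, 12 of 14 and 14 of 25. In the other 24 nuclei the hashtag of HNKO mouse 1 was the highest.

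Hepatocyte RNA was present in both clusters, with the larger share in the CD45+ 1 nuclei of each mouse. The 13 genes of a hepatocyte list summed to 2899, 2542 and 3521 counts per 1000000 UMIs (CPM) in the Kupffer sums of HNKO mice 1, 2 and 3 and to 5440, 16739 and 3805 CPM in the CD45+ 1 sums. The median nucleus had 0.183%, 0.232% and 0.243% of its UMIs from this list in the Kupffer clusters and 0.245%, 1.02% and 0.300% in the CD45+ 1 clusters. The share was below that of CD45+ 1 in 3 of 3 mice, with a mean difference of -0.302 percentage points (exact sign-flip permutation test, p = 0.25, the smallest possible). None of the 8 hepatocyte genes that entered the gene-wise test passed it, with a median log2 fold change of -1.01. Cps1, a member of the list, did pass in 6 of the alternative settings given at the end. HNKO mouse 2 stood apart with the largest hepatocyte share in its CD45+ 1 nuclei.

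Nampt itself was detected at low counts in both clusters. It stood at 311, 135 and 203 CPM in the Kupffer sums (32, 5 and 19 UMIs) and at 220, 232 and 130 CPM in the CD45+ 1 sums (41, 13 and 11 UMIs). The groups overlapped, and the Kupffer to CD45+ 1 log2 fold change was 0.23 ± 0.42 (SE; edgeR quasi-likelihood test, Benjamini-Hochberg adjusted p = 0.818). The hepatocytes of the same mice, in which Cre acts, held 108 ± 35.2 CPM (SD, n = 3).

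Across genes, the clusters differed in both directions. Of 2015 genes with enough counts, 278 (13.8%) passed an adjusted p of 0.05 in the edgeR quasi-likelihood test with the mouse as a block: 136 (6.75%) were higher in Kupffer nuclei and 142 (7.05%) were higher in CD45+ 1 nuclei. The median log2 fold change over all genes tested was -0.01. The authors drew both clusters from the same genes of the same nuclei and used Ptprc, Hdac9, Timd4 and Inpp4b among the markers that named clusters. The calls therefore describe how steady a gene's difference was over 3 mice and are no evidence that there are 2 kinds of cell. A gene at or near 0 in 1 cluster could enter the test only through the cluster where it was high. The leading CD45+ 1 genes below, with 0 or 1 UMI in the Kupffer sums, entered in this way. So did Kupffer genes such as Cd163, Pcolce2, Slc1a3 and Gfra2, with 1 UMI in the CD45+ 1 sums, and Timd4, with 3. The count rested on 2 animals in particular: without HNKO mouse 3 it was 24 genes, and without HNKO mouse 1 it was 130. Without the 24 nuclei with another mouse's hashtag on top it was 118 of 1290 genes tested.

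**Figure D1:**
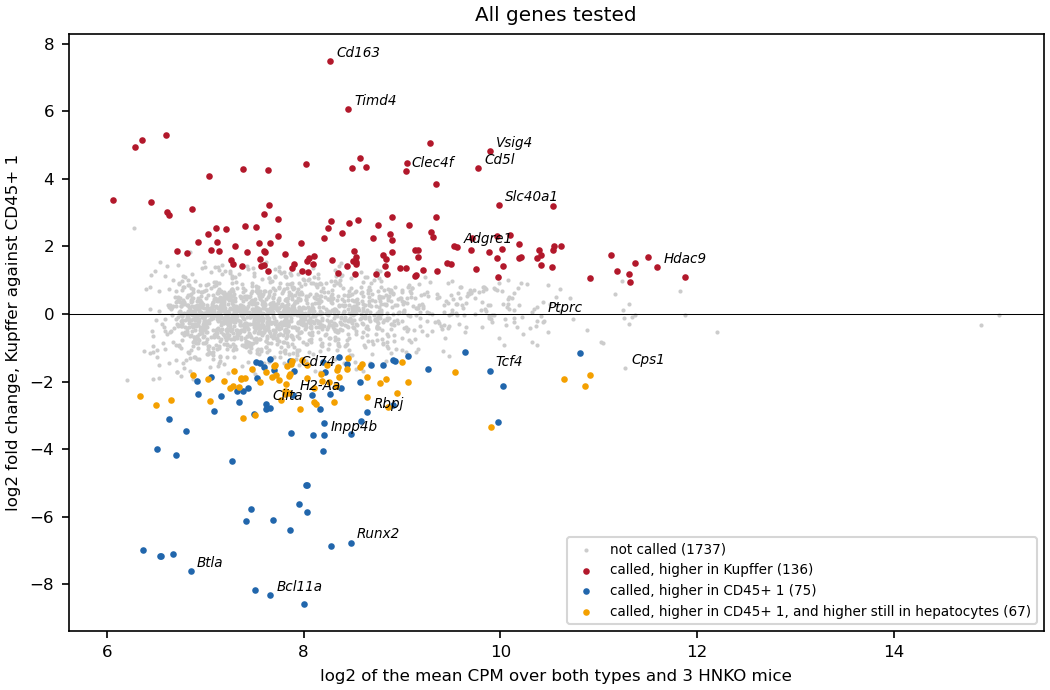
Each point is 1 of the 2015 genes tested, with the log2 of its mean CPM on the x axis and its Kupffer to CD45+ 1 log2 fold change in HNKO mice on the y axis, and coloured points passed the adjusted p of 0.05, orange for the 67 genes with a higher CPM still in hepatocytes. The 136 genes higher in Kupffer and the 142 higher in CD45+ 1 nuclei lie on both sides of a median at -0.01.

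The Kupffer side was led by the receptors and secreted proteins that define resident Kupffer cells. All 11 genes of the resident Kupffer list that could be tested were higher in Kupffer nuclei, as were 6.75% of all genes tested. Their median log2 fold change was 4.24, and the other 5 of the 16 were below the count filter. Members at or near 0 in the CD45+ 1 sums entered the test only through the Kupffer sums. Of the 11, 10 still passed without HNKO mouse 1 and 5 without HNKO mouse 3, which left out Vsig4, Slc40a1 and Clec1b among others, and all 11 without the nuclei with another mouse's hashtag on top. Clec4f, a galactose-binding lectin receptor made almost only by Kupffer cells (chromosome 6, 83644542 to 83656187, minus strand, GRCm38), stood at 973, 1082 and 950 CPM in the Kupffer sums of HNKO mice 1, 2 and 3 and at 69.6, 53.5 and 23.6 CPM in the CD45+ 1 sums. Timd4, a phosphatidylserine receptor for dying cells (chromosome 11, 46810800 to 46844332, plus strand), stood at 710, 730 and 630 CPM against 10.7, 17.8 and 0 CPM. Neither gene's groups overlapped, and both were steady over the 3 mice: the log2 fold changes were 4.24 ± 0.45 and 6.05 ± 0.60 (SE), each with an edgeR adjusted p of 6.23e-05. The 250 bases before the start site of these 2 genes, from RefSeq on GRCm38.p6, are shown as the promoters of the cluster's defining receptors, Clec4f at chr6:83656117-83656366 on the minus strand and Timd4 at chr11:46810549-46810798 on the plus strand. They hold neither of the motifs searched below and so carry no capitals. The RefSeq start of Clec4f lies inside the gene span given above, which is from GENCODE, so part of its window does too.
Clec4f: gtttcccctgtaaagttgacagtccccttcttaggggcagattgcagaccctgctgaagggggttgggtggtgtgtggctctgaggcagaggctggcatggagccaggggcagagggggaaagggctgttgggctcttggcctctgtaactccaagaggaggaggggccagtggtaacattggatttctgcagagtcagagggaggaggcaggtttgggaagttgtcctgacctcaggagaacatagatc
Timd4: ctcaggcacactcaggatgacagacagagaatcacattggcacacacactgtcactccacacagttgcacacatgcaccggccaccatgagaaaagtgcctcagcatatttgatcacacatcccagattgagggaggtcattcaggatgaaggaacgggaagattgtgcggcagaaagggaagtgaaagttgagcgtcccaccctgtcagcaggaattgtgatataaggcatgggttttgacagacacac

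Vsig4, a complement receptor that captures opsonised bacteria, stood at 1829, 2272 and 1430 CPM in Kupffer sums and at 118, 0 and 47.3 CPM in CD45+ 1 sums. Cd5l, a secreted scavenger-family protein of tissue macrophages, stood at 1197, 1812 and 1995 CPM against 80.3, 161 and 11.8 CPM. C6, a component of the complement membrane attack complex, stood at 905, 1109 and 1014 CPM against 26.8, 89.2 and 35.5 CPM. In each of these 3 genes the lowest Kupffer sum lay far above the highest CD45+ 1 sum, with log2 fold changes of 4.81 ± 0.52, 4.33 ± 0.52 and 4.46 ± 0.47 (SE; edgeR adjusted p at most 1.0e-04). Cd163, the receptor for haemoglobin bound to haptoglobin, varied widely between mice, at 1099, 541 and 203 CPM in Kupffer sums. CD45+ 1 sums held 1 Cd163 UMI in all, against 152 in Kupffer sums, a ratio of 213 after scaling to the totals (exact 95% interval 37.7 to 8474, counting error only). Clec1b, a platelet-type lectin receptor whose locus overlaps Clec9a, differed by 2.95 on the log2 scale, the adhesion receptor Adgre4 by 2.42, the NAD+-consuming ectoenzyme Cd38 by 2.37 and the integrin Itga9 by 1.66.

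The members of the list below the filter were rare. Folr2, a folate receptor of resident macrophages, had 11, 2 and 11 UMIs in Kupffer sums and 1, 0 and 0 in CD45+ 1 sums (ratio 33.7, exact 95% interval 5.49 to 1384). Marco, a scavenger receptor for bacteria, had 14, 0 and 4 UMIs against 0, 1 and 0, and the potassium channel Kcna2 had 11, 7 and 18 against 1, 0 and 0. The ficolin Fcna had 7, 4 and 1 UMIs against 1, 0 and 0. All of these sums were small, and Marco overlapped between clusters.

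Other genes with the largest fold changes on the Kupffer side included Ank2, which encodes the membrane-skeleton adaptor ankyrin-B. It stood at 1090, 1136 and 1441 CPM in Kupffer sums and at 69.6, 17.8 and 0 CPM in CD45+ 1 sums, a log2 fold change of 5.04 ± 0.58 (SE; edgeR adjusted p = 9.38e-05). The inward-rectifier potassium channel Kcnj16 differed by 4.61, the membrane-skeleton protein Epb41l3 by 4.43, the kinase scaffold Ksr2 by 4.34 and the membrane-repair protein Dysf by 4.33, all on the log2 scale. The remaining genes had 1 UMI in the CD45+ 1 sums: the collagen-processing enhancer Pcolce2 (43 against 1 UMIs, ratio 60.3, exact 95% interval 10.3 to 2436), the glutamate transporter Slc1a3 (36 against 1, ratio 50.5, interval 8.50 to 2049) and the neurturin receptor Gfra2 (33 against 1, ratio 46.3, interval 7.75 to 1882). In all 12 leading genes every Kupffer sum exceeded every CD45+ 1 sum.

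**Figure D2:**
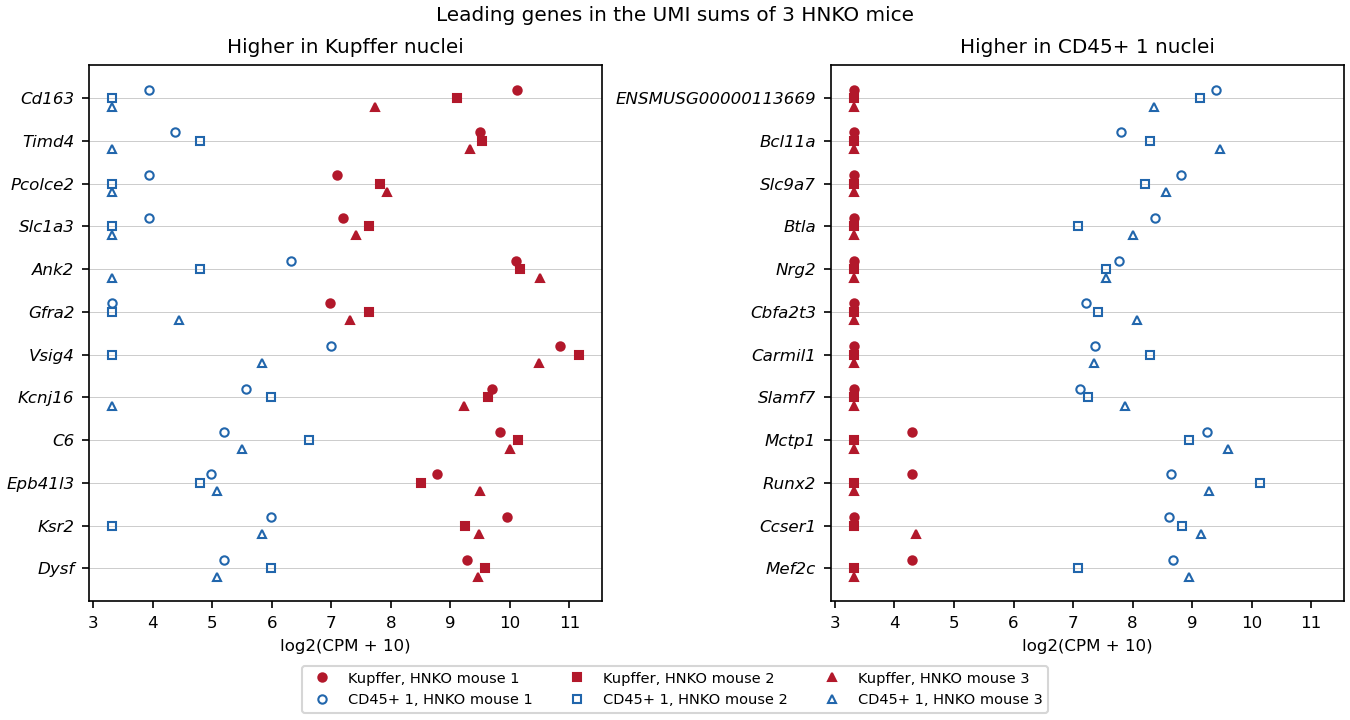
The 12 genes with the largest fold change in each direction are shown as log2(CPM + 10) in each sum of 3 HNKO mice, filled symbols for Kupffer and open symbols for CD45+ 1. No filled and open symbols of a gene overlap, Cd163 spans 203 to 1099 CPM between mice, and 8 genes on the right are at 0 in every Kupffer sum.

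Genes of the iron list were also higher in Kupffer nuclei where they passed the test. Slc40a1, the iron exporter ferroportin, stood at 1547, 2110 and 1867 CPM in Kupffer sums and at 295, 89.2 and 177 CPM in CD45+ 1 sums, a log2 fold change of 3.22 ± 0.40 (SE; edgeR adjusted p = 1.15e-04). With Cd163 and Hpgd it made up the 3 of 5 tested members of the list that were higher in Kupffer nuclei, against 6.75% of all genes tested. Slc40a1 and Cd163 were already counted in the resident Kupffer list. Hpgd is known as an enzyme that degrades prostaglandins, and of the other 4 tested members 2 were higher. Without HNKO mouse 3, Cd163 alone of these 3 still passed. The light chain of ferritin, Ftl1, had a log2 fold change of 0.01 and transferrin, Trf, one of -1.11, neither past the test. Hpgd stood at 798, 1569 and 491 CPM against 187, 53.5 and 130 CPM.

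Of 11 tested scavenger and efferocytosis receptors, 6 were higher in Kupffer nuclei, as were 6.75% of all genes tested, and none was higher in CD45+ 1 nuclei. Timd4 and Cd163 are among the 6 and were already counted in the resident Kupffer list. Of the 6, 4 still passed without HNKO mouse 1, 2 without HNKO mouse 3 and 5 without the nuclei with another mouse's hashtag on top. Msr1, a receptor for modified lipoproteins, stood at 1138, 866 and 1142 CPM against 402, 53.5 and 213 CPM, a log2 fold change of 2.29. Mertk, a receptor tyrosine kinase that mediates uptake of apoptotic cells, stood at 2189, 1839 and 1963 CPM against 1125, 446 and 414 CPM, and its log2 fold change was 1.67 ± 0.34 (SE; edgeR adjusted p = 0.00427). The mannose receptor Mrc1 (1.88) and the collectin Colec12 (2.25) also passed, with no overlap between clusters. Cd36, the fatty acid and lipoprotein receptor, overlapped between clusters at 117, 216 and 245 CPM against 241, 71.4 and 390 CPM (log2 fold change -0.39, adjusted p = 0.67), and Axl (0.93), Lrp1 (0.96), Scarb1 (0.29) and Itgb5 (0.24) did not pass.

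Among genes of cholesterol efflux, the oxysterol receptor Nr1h3 (LXRα) stood at 214, 595 and 299 CPM in Kupffer sums and at 85.7, 53.5 and 35.5 CPM in CD45+ 1 sums (log2 fold change 2.30 ± 0.48 SE, edgeR adjusted p = 0.00536). Its classical target Pltp, the phospholipid transfer protein, stood at 185, 325 and 149 CPM against 32.1, 71.4 and 23.6 CPM (2.36, adjusted p = 0.00893). Another LXR target, the cholesterol exporter Abca1, overlapped at 1537, 1055 and 651 CPM against 637, 410 and 815 CPM (0.72, adjusted p = 0.256). Apoe did not pass either (-0.29, adjusted p = 0.654). The list's median log2 fold change was 0.72. Of its 5 tested members 2 were higher in Kupffer nuclei, as were 6.75% of all genes tested. Neither gene passed without HNKO mouse 3 or without the nuclei with another mouse's hashtag on top, and Pltp did not pass without HNKO mouse 1.

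Of 7 tested transcription factors known from Kupffer cells, 2 were higher in Kupffer (against 6.75% of all genes tested) and 1 in CD45+ 1 nuclei (against 7.05%). The former were Nr1h3 and Tfec, a factor of the MiT family, which stood at 340, 379 and 427 CPM against 96.4, 17.8 and 23.6 CPM (log2 fold change 2.80). The latter was Rbpj, the DNA-binding partner of Notch, at 9.73, 243 and 117 CPM in Kupffer sums against 712, 571 and 756 CPM in CD45+ 1 sums (-2.91 ± 0.59 SE, edgeR adjusted p = 0.00427). No Rbpj value of a Kupffer sum reached the CD45+ 1 range, although the 3 Kupffer values differed widely. Zeb2 (0.67, adjusted p = 0.0901), Rxra (1.41, adjusted p = 0.0833) and Maf (0.64, adjusted p = 0.391) did not pass. Spic and Id3, both tied to Kupffer identity, had 19 against 6 and 11 against 3 UMIs and were below the filter. Without HNKO mouse 3 none of Nr1h3, Tfec and Rbpj passed, and without HNKO mouse 1 Rbpj did not.

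General leukocyte and macrophage genes separated the clusters less. Ptprc, which encodes CD45 and gives the CD45+ clusters their name, stood at 1206, 1758 and 1131 CPM in Kupffer sums and at 1601, 892 and 1595 CPM in CD45+ 1 sums. The groups overlapped and the log2 fold change was -0.05 ± 0.33 (SE; edgeR adjusted p = 0.957). Spi1, the macrophage and dendritic cell factor PU.1, was also close to 0 (0.12, adjusted p = 0.908). Adgre1, the macrophage antigen F4/80, stood at 1051, 1569 and 1014 CPM against 332, 375 and 189 CPM (1.97 ± 0.34 SE, adjusted p = 0.00163).

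The macrophage growth factor receptor Csf1r stood at 272, 568 and 384 CPM in Kupffer sums against 129, 71.4 and 154 CPM in CD45+ 1 sums (log2 fold change 1.58, edgeR adjusted p = 0.0246), and the complement subunit C1qc at 224, 243 and 213 CPM against 75.0, 17.8 and 70.9 CPM (1.87, adjusted p = 0.0229). C1qb overlapped between clusters (0.71, adjusted p = 0.422). Hdac9, a histone deacetylase used to name the macrophage cluster, stood at 3716, 5518 and 4311 CPM against 2153, 1178 and 1690 CPM (1.39, adjusted p = 0.00498). With Mertk, 5 of 10 tested genes of this list were higher in Kupffer and none in CD45+ 1 nuclei. Over all genes tested the shares were 6.75% and 7.05%. Of the 5 genes, 3 still passed without HNKO mouse 1, 0 without HNKO mouse 3 and 3 without the nuclei with another mouse's hashtag on top. Adgre1, Csf1r and C1qc were above 0 in the CD45+ 1 sum of every mouse. The usual macrophage markers Cd68 and Cd14 had at most 2 UMIs in each cluster's sum over the mice.

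The CD45+ 1 side was led by genes that were at or near 0 in every Kupffer sum. Bcl11a, a transcription factor of dendritic and B cell development, had no UMI in Kupffer nuclei and stood at 214, 303 and 697 CPM in the CD45+ 1 sums of HNKO mice 1, 2 and 3 (116 UMIs). Against a floor of 3 counts over the Kupffer sums it was at least 27.6-fold higher in CD45+ 1 nuclei. Btla, an inhibitory receptor of lymphocytes and dendritic cells, stood at 321, 125 and 248 CPM against 0 (88 UMIs, at least 20.9-fold higher). The same form of bound was at least 30.7-fold for the sodium-proton exchanger Slc9a7 (129 UMIs), at least 15.2-fold for the neuregulin Nrg2 (64), at least 14.0-fold for the actin regulator Carmil1 (59), at least 13.5-fold for the transcriptional corepressor Cbfa2t3 (57) and at least 12.1-fold for the leukocyte receptor Slamf7 (51). Without HNKO mouse 3, Bcl11a (edgeR adjusted p = 0.0632), Nrg2, Carmil1, Cbfa2t3 and Slamf7 did not pass. Cbfa2t3 shares its locus with an overlapping gene model, so its reads may be split. The noncoding gene ENSMUSG00000113669 on chromosome 12 had 182 UMIs against 0, at least 43.3-fold.

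Runx2, a runt-family factor known from bone and from plasmacytoid dendritic cells (chromosome 17, 44495987 to 44814797, minus strand, overlapped by Supt3 and 3 antisense genes), stood at 9.73, 0 and 0 CPM in Kupffer sums and at 391, 1124 and 614 CPM in CD45+ 1 sums. The UMI ratio was 134 (exact 95% interval 23.8 to 5323, counting error only) and the edgeR adjusted p was 6.23e-05. Mctp1, a calcium-binding membrane protein, had 1 UMI against 204 (ratio 145, interval 25.8 to 5774). Mef2c, a transcription factor of lymphoid and dendritic lineages, had 1 against 123 (ratio 87.7, interval 15.5 to 3492), and Ccser1 had 1 against 143. For each of the 12 leading genes the sums of the 3 CD45+ 1 samples lay above those of the 3 Kupffer samples.

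Transcripts of MHC class II presentation genes were higher in CD45+ 1 nuclei in the fit of all 3 mice. All 5 tested genes of the list of 8 passed as higher in CD45+ 1 nuclei, as did 7.05% of all genes tested. Their median log2 fold change was -2.41. H2-Aa, the alpha chain of the I-A molecule (chromosome 17, 34282744 to 34287823, minus strand), stood at 58.4, 135 and 64.0 CPM in Kupffer sums and at 418, 339 and 414 CPM in CD45+ 1 sums (-2.39 ± 0.45 SE, edgeR adjusted p = 0.00275). Its partner H2-Ab1, the beta chain, stood at 38.9, 54.1 and 53.4 CPM against 305, 178 and 343 CPM (-2.60). These 2 genes did not overlap between clusters in any mouse. The promoters of H2-Aa (chr17:34287824-34288073, minus strand) and of H2-Eb1, the beta chain of I-E (chr17:34305617-34305866, plus strand), are shown because both hold CTGATTGG, the letters of a Y box as found in class II promoters, in capitals.
H2-Aa: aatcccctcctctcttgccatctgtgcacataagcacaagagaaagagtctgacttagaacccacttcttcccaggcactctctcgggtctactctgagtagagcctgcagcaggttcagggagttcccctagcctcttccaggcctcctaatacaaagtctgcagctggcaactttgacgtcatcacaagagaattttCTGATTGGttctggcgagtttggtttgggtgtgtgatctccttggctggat
H2-Eb1: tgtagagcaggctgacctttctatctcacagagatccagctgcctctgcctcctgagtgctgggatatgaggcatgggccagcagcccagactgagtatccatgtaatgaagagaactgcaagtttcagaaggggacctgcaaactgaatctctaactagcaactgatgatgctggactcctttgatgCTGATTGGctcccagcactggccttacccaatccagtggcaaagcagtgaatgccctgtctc
CTGATTGG, searched on both strands, lies 51 and 62 bases before these starts and occurs in 3.83% of 32851 mouse promoter windows of this length, in 2 of 6 windows of the class II list, in 2.01% of windows of the genes higher in Kupffer and in 4.32% of those higher in CD45+ 1 nuclei. Over the genes tested the share was 3.57%. GAGGAAGT, a PU.1-type sequence, occurs in 2.44% of all windows, in 3.20% of those of the genes tested, in 4.03% and 4.32% of those higher in Kupffer and in CD45+ 1 nuclei, and in none of the class II or resident Kupffer lists. The counts behind the shares are small, at 3 of 149 and 7 of 162 windows for CTGATTGG and at 6 of 149 and 7 of 162 for GAGGAAGT, and they are a description of letters.

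H2-Eb1 itself stood at 19.5, 270.5 and 64.0 CPM in Kupffer sums and at 546, 286 and 449 CPM in CD45+ 1 sums (log2 fold change -2.41, edgeR adjusted p = 0.0195), and in HNKO mouse 2 the values nearly met. Cd74, the invariant chain that guides class II molecules, stood at 68.1, 216 and 107 CPM against 418, 214 and 414 CPM (-1.68, adjusted p = 0.034), and in HNKO mouse 2 the clusters were alike. Ciita, the master activator of class II genes, stood at 19.5, 81.1 and 85.4 CPM against 327, 196 and 473 CPM (-2.66, adjusted p = 0.00313). The genes of the peptide editor, H2-DMa, H2-DMb1 and H2-DMb2, had 3, 9 and 0 UMIs against 15, 13 and 7. The class II calls rested on HNKO mice 1 and 3: without HNKO mouse 1 none of the 5 genes passed (edgeR adjusted p from 0.0561 to 0.315), and without HNKO mouse 3 none did (0.0906 to 0.320), with the direction kept in each. Without the nuclei with another mouse's hashtag on top, H2-Aa, H2-Ab1 and Ciita still passed.

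Markers of several other myeloid types had more UMIs in CD45+ 1 nuclei, most below the count filter. The plasmacytoid dendritic list of 5 had 2 genes tested, Runx2 and Tcf4. Both were higher in CD45+ 1 nuclei, as were 7.05% of all genes tested, and Tcf4 did not pass without HNKO mouse 3. Tcf4, the E protein that maintains plasmacytoid dendritic cells, stood at 360, 676 and 373 CPM against 991, 1642 and 1654 CPM (log2 fold change -1.68, edgeR adjusted p = 0.00366). Siglech, a lectin of plasmacytoid dendritic cells, had no UMI in Kupffer sums and 17, 12 and 15 in CD45+ 1 sums (at least 10.5-fold), and the gut-homing receptor Ccr9 had none against 39, 2 and 19 (at least 14.3-fold). Flt3, the growth factor receptor of dendritic cell precursors, had none against 33, 5 and 17 (at least 13.1-fold). Zbtb46, a factor of conventional dendritic cells, had 4, 0 and 0 UMIs against 20, 18 and 21.

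Of the 13 conventional dendritic genes 3 were tested, and 2 were higher in CD45+ 1 nuclei, as were 7.05% of all genes tested. These were Dpp4, a surface peptidase (48.6, 0 and 74.7 CPM against 252, 375 and 425 CPM, log2 fold change -2.81, edgeR adjusted p = 0.00302), and Kmo, an enzyme of tryptophan breakdown (-2.70, adjusted p = 0.0188). Kmo was also higher in hepatocyte nuclei. Clec9a did not pass (-0.30, adjusted p = 0.736), and Xcr1, a receptor of cross-presenting dendritic cells, had 0 against 9 UMIs. Irf8 was listed at 0 in every sum and overlaps another gene model, so its level cannot be read here. Dpp4 did not pass without HNKO mouse 3, and Kmo was then below the filter.

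Monocyte-derived cells are often told by Ccr2, the receptor that draws monocytes into tissue. It had 1, 0 and 0 UMIs in Kupffer sums and 28, 3 and 8 in CD45+ 1 sums (ratio 27.8, exact 95% interval 4.71 to 1126), and the fractalkine receptor Cx3cr1 had 1, 0 and 0 against 6, 2 and 17. The Cx3cr1 model overlaps 9 other genes, and 219 of 2478 hepatocyte nuclei (8.84%) held a UMI of it. None of the 3 tested genes of the 15 in the monocyte list passed in either direction: Fn1 had a log2 fold change of -1.45 (edgeR adjusted p = 0.102), Itga4 of -0.96 (adjusted p = 0.106) and Cd44 of 0.14 (adjusted p = 0.864). Ly6c2 and Chil3, made by classical monocytes, had no UMI in either cluster.

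The lipid-associated macrophage list was divided. Gpnmb, a lysosomal glycoprotein of these macrophages, had no UMI in Kupffer sums and 28, 6 and 23 in CD45+ 1 sums (at least 13.5-fold), and the integrin Itgax (CD11c) had none against 22, 6 and 14 (at least 9.98-fold). The galectin Lgals3 had 10, 0 and 6 UMIs against 36, 2 and 16. Trem2, their defining receptor, was nearly absent, at 0, 1 and 0 UMIs against 4, 0 and 3. Of 4 tested members only Ctsb, a lysosomal protease, passed, and it was higher in Kupffer nuclei (846, 866 and 822 CPM against 434, 125 and 461 CPM, log2 fold change 1.31, edgeR adjusted p = 0.041). Lpl (1.40), Lipa (0.12) and Cd36 did not pass. Ctsb did not pass when any 1 of the mice, or the nuclei with another mouse's hashtag on top, were left out.

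**Figure D3:**
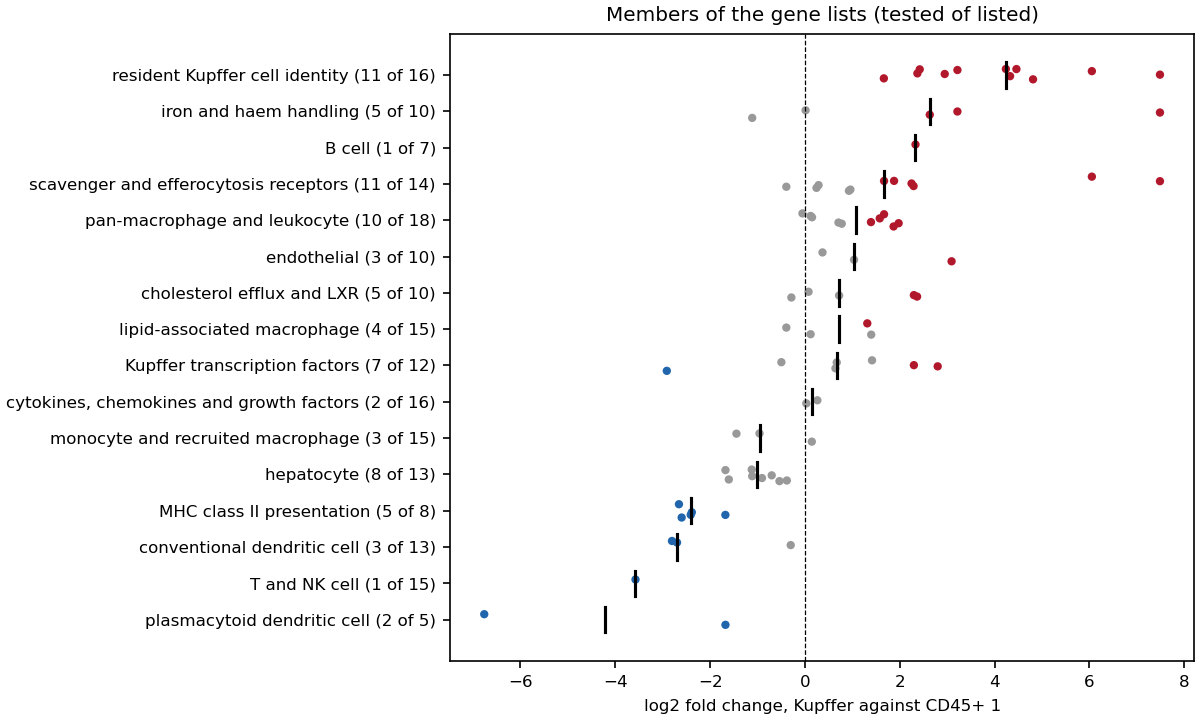
Each row is 1 of the gene lists and each point 1 tested member, placed by its Kupffer to CD45+ 1 log2 fold change in HNKO mice on the x axis, with members that passed the adjusted p of 0.05 coloured and the list's median as a black bar. All 11 tested resident Kupffer genes lie to the right, all 5 tested MHC class II genes lie to the left, and the 8 hepatocyte genes lie to the left without passing in the fit shown.

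Single nuclei showed how these transcripts were spread, described without a test since the nuclei of a mouse are not replicates. At least 1 UMI of Clec4f was found in 60 of 64 Kupffer and 10 of 91 CD45+ 1 nuclei, of Timd4 in 46 and 2, of Vsig4 in 57 and 6, and of Cd163 in 37 and 1. Ptprc was found in 59 of 64 and 80 of 91. Among the CD45+ 1 genes, H2-Aa was found in 10 Kupffer and 48 CD45+ 1 nuclei, Runx2 in 1 Kupffer and 33 CD45+ 1 nuclei, Itgax in 0 and 28, Btla in 0 and 27, Bcl11a in 0 and 26, Ccr2 in 1 and 23, Flt3 in 0 and 22, Gpnmb in 0 and 13 and Siglech in 0 and 12. A count of 0 of 64 nuclei has an exact 95% upper bound of 5.601%, which covers counting error only and takes no account of the mouse. The bound limits nuclei with a UMI and not nuclei that express the gene. The same genes in hepatocyte nuclei give a background for such shares. Of 2478 hepatocyte nuclei, at least 1 UMI was found in 29 for Clec4f, 8 for Timd4, 22 for Vsig4, 13 for Cd163, 78 for Ptprc, 42 for H2-Aa, 63 for Runx2 and at most 17 for each of the other 7 genes named here, at a median depth of 5257 UMIs against 2955 in Kupffer and 3019 in CD45+ 1 nuclei.

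Within CD45+ 1, macrophage and plasmacytoid dendritic genes were found in separate nuclei and also together. Nuclei were counted for small gene groups, put together after the values were seen, when they held at least 2 UMIs of the group. The macrophage group (Adgre1, Csf1r, C1qa, C1qb, C1qc) was met by 60 of 64 Kupffer and 39 of 91 CD45+ 1 nuclei. The plasmacytoid dendritic group (Siglech, Ccr9, Runx2) was met by 0 and 32. It left out Tcf4 and Bst2 of the plasmacytoid list, so the 0 depends on the members kept. The full list of 5 held 115 UMIs in Kupffer and 728 in CD45+ 1 sums. Of the Kupffer UMIs 1 was of Runx2 and none was of Siglech or Ccr9. In CD45+ 1, 30 nuclei met the macrophage group alone, 23 the plasmacytoid group alone, 9 both and 29 neither. With a minimum of 1 UMI the counts were 28, 25, 19 and 19, so the overlap grew with the looser minimum. The overlap that unrelated detection would give was not worked out, so these counts do not show separate subsets of cells. The 22 CD45+ 1 nuclei with Flt3 included 1 with a UMI of a macrophage-group gene, whereas 13 of 13 nuclei with Gpnmb and 13 of 23 with Ccr2 held at least 1 UMI of a macrophage-group gene. The MHC class II group was met by 67 of 91 CD45+ 1 and 20 of 64 Kupffer nuclei, and 29 of the 39 CD45+ 1 nuclei of the macrophage group met it as well. The Kupffer group (Clec4f, Timd4, Vsig4, Cd5l, Cd163, C6) was met by all 64 Kupffer and by 14 CD45+ 1 nuclei (15.4%), and by 286 of 2478 hepatocyte nuclei (11.5%), where C6 was found in 584.

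When each nucleus was thinned to 1500 UMIs, the macrophage group was met by 52 of 64 Kupffer and 26 of 91 CD45+ 1 nuclei, the plasmacytoid group by 0 and 17, and the class II group by 10 and 54. No nucleus was too shallow to be thinned. A sum over CD45+ 1 nuclei averages over nuclei with and without these transcripts.

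**Figure D4:**
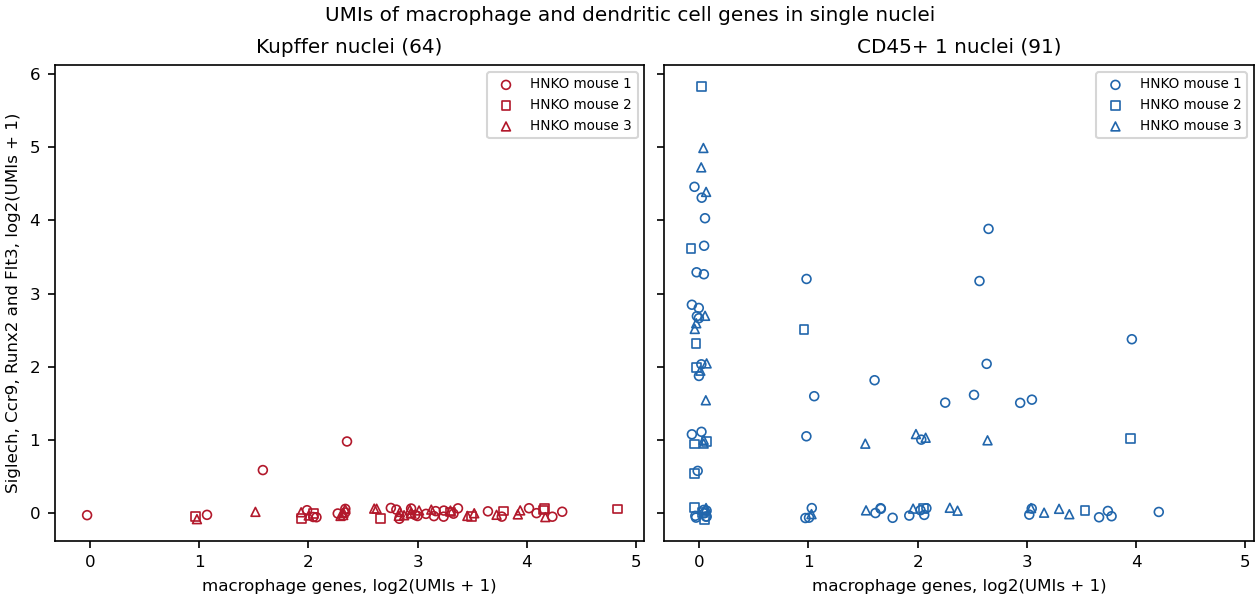
Each symbol is 1 HNKO nucleus, shifted slightly to separate overlapping points, with log2(UMIs + 1) of the macrophage group on the x axis and of Siglech, Ccr9, Runx2 and Flt3 together on the y axis, 64 Kupffer nuclei on the left and 91 CD45+ 1 nuclei on the right. Kupffer nuclei lie along the x axis, whereas CD45+ 1 nuclei lie along both axes and between them. Tcf4 and Bst2 of the plasmacytoid list are not counted.

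Defining lymphocyte genes were at or near 0 in both clusters, although 1 gene of each lymphocyte list passed. Cd3e, Cd3d and Cd3g of the T cell receptor complex had no UMI in either cluster, and neither had the B cell genes Cd79a and Ms4a1. Inpp4b, a lipid phosphatase used to name CD45+ clusters, stood at 19.5, 108 and 42.7 CPM in Kupffer sums and at 509, 482 and 614 CPM in CD45+ 1 sums (log2 fold change -3.57 ± 0.51 SE, edgeR adjusted p = 4.23e-04). Bank1, an adaptor of B cell receptor signalling, went the other way, at 1411, 2056 and 2049 CPM against 477, 375 and 213 CPM (2.33, adjusted p = 9.18e-04). Neither Inpp4b nor Bank1 passed without HNKO mouse 3. Ebf1, a B lineage factor, had 0 against 20 UMIs. The neutrophil genes S100a8 and S100a9 had no UMI in either cluster.

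Few cytokine genes were measurable. Only Igf1 (log2 fold change 0.03, edgeR adjusted p = 0.983) and Tgfb1 (0.26, adjusted p = 0.836) of 16 were tested, and neither passed. Il1b had 23 UMIs in Kupffer and 6 in CD45+ 1 sums, and Tnf 4 and 1. None of the 10 cell cycle genes was tested, and the list held 32 UMIs in Kupffer and 8 in CD45+ 1 sums, of which Top2a made up 6 and 0 and Mki67 5 and 1. At least 2 UMIs of a cell cycle group of 8 of these genes were found in 5 of 64 Kupffer and 0 of 91 CD45+ 1 nuclei.

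Genes of neighbouring liver cells also appeared in the sums. The endothelial list of 10 genes summed to 1226, 703 and 576 CPM in Kupffer and to 434, 1089 and 567 CPM in CD45+ 1 sums, which overlapped. At least 2 UMIs of the list were found in 46 of 64 Kupffer and 22 of 91 CD45+ 1 nuclei. Its member Cdh5, the cadherin of endothelial junctions, was higher in Kupffer nuclei at 253, 216 and 160 CPM against 26.8, 17.8 and 23.6 CPM (log2 fold change 3.09 ± 0.59 SE, edgeR adjusted p = 0.00312), and its mean of 210 CPM lay beside the 209 ± 61.5 CPM (SD, n = 3) of endothelial nuclei. It did not pass without HNKO mouse 1 (adjusted p = 0.0999) or without HNKO mouse 3 (0.0819), and it was below the filter without the nuclei with another mouse's hashtag on top. Stab2, a clearance receptor of sinusoidal endothelium, did not pass (409, 270 and 117 CPM against 150, 35.7 and 165 CPM, 1.03, adjusted p = 0.222), and Flt1, Kdr, Egfl7 and Clec4g had at most 5 UMIs in each cluster. Stellate genes summed to 27.0 to 117 CPM in Kupffer and 47.3 to 166 CPM in CD45+ 1 sums. Cholangiocyte genes summed to 0 to 85.4 and 214 to 461 CPM, and Krt7, Krt19 and Epcam had no UMI. The part of neighbouring-cell RNA in these differences was not tested.

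Some genes higher in CD45+ 1 than in Kupffer nuclei were higher still in hepatocytes. Of the 142, 67 (47.2%) had a higher pooled CPM in hepatocyte than in CD45+ 1 nuclei, as had 26.3% of all 2015 genes tested. Of the 136 genes higher in Kupffer nuclei, 2 (1.47%) had a higher CPM in hepatocyte than in Kupffer nuclei, as had 28.9% of all genes tested. Some of the 67 exceeded CD45+ 1 by little. Examples, chosen after their values were seen, were the urea cycle enzymes Arg1, at 58.4, 27.0 and 96.0 CPM in Kupffer and 236, 696 and 272 CPM in CD45+ 1 sums (log2 fold change -2.33, edgeR adjusted p = 0.00828), and Ass1, at 87.6, 27.0 and 74.7 CPM against 311, 589 and 260 CPM (-2.29). The fatty acid sensor Ppara stood at 117, 54.1 and 117 CPM against 343, 1249 and 520 CPM (-2.46). All 3 were highest in the CD45+ 1 sum of HNKO mouse 2. This did not hold for all of the 67. In CD45+ 1 sums Zbtb16 (921, 286 and 130 CPM) and Aass (835, 482 and 177 CPM) were highest in HNKO mouse 1. The 67 genes together summed to 7705, 5220 and 13114 CPM in Kupffer and 28948, 55410 and 28255 CPM in CD45+ 1 sums. Without HNKO mouse 1, 7 of 62 of them that were tested still passed, without HNKO mouse 2 36 of 67, and without HNKO mouse 3 2 of 65. Without the nuclei with another mouse's hashtag on top 18 of 51 passed, and with DESeq2 27 of 67. When the 7 Kupffer and 9 CD45+ 1 nuclei with the most hepatocyte UMIs were left out, 40 of 42 that were tested still passed. The rest of the 67, Arg1 among them, were then below the count filter, so this count says nothing about them. The part of free hepatocyte RNA in these genes was not tested.

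The genes higher in Kupffer nuclei were mostly at their highest there among all liver nuclei of HNKO mice. Of the 136, 121 had their highest pooled CPM in Kupffer nuclei among 8 cell types, and 7 were higher in endothelial nuclei. Of the 142 genes higher in CD45+ 1, 47 had their highest CPM in that cluster, 70 were higher in the immune cluster CD45+ 2, 75 in CD45+ 3, 49 in endothelial nuclei and 47 in cholangiocytes. Inpp4b, for example, stood at 535 ± 70.1 CPM in CD45+ 1 but at 2246 ± 523 CPM in CD45+ 2 (SD, n = 3). Bank1 stood at 1838 CPM in Kupffer nuclei and at 3948 ± 2844 CPM (SD, n = 3) in CD45+ 3, where it varied widely. These levels are a description, since the clusters were drawn on these genes.

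**Figure D5:**
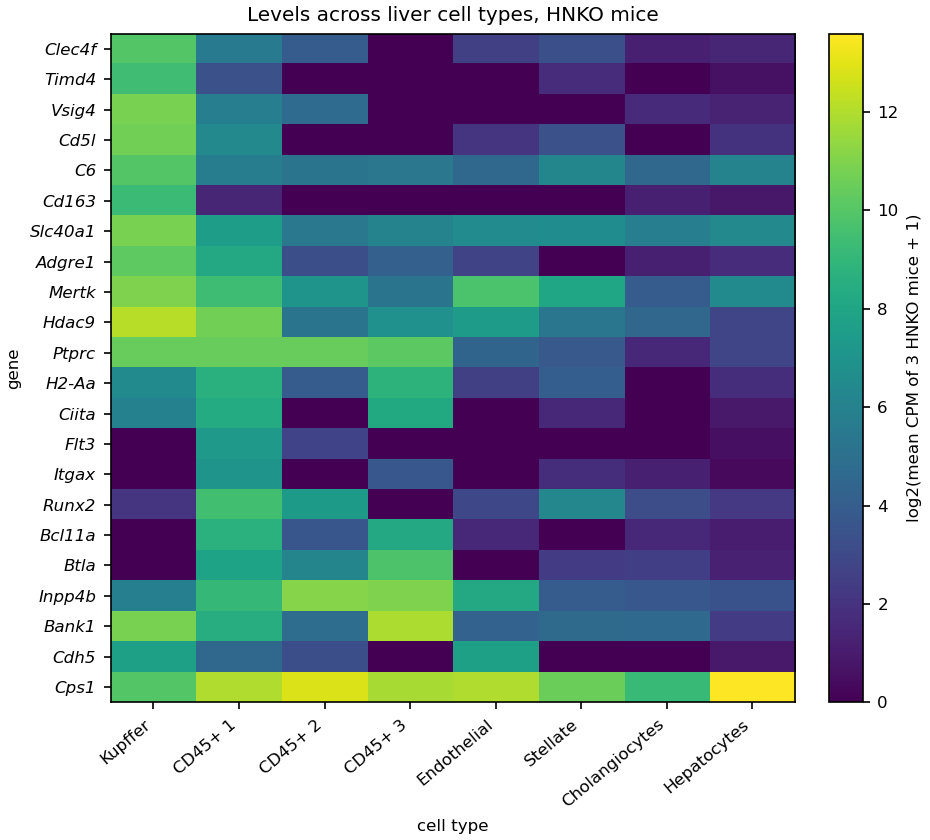
The colour gives log2(mean CPM of 3 HNKO mice + 1) for named genes in rows and the 8 cell types of the liver in columns. The resident Kupffer genes Clec4f, Timd4, Vsig4, Cd5l, C6, Cd163 and Slc40a1 are highest in the Kupffer column, Cdh5 reaches a like level in Kupffer and endothelial nuclei, and Inpp4b is higher in CD45+ 2 than in CD45+ 1.

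The balance of the clusters was compared with that in WT livers. Kupffer nuclei made up 35.8% (exact binomial 95% interval 25.4 to 47.2), 41.7% (22.1 to 63.4) and 50.0% (35.5 to 64.5) of Kupffer plus CD45+ 1 nuclei in HNKO mice 1, 2 and 3, a mean of 42.5 ± 7.13% (SD, n = 3). In WT mice the shares were 54.5%, 54.5% and 50.0%, a mean of 53.0 ± 2.62% (SD, n = 3), from 8 to 11 nuclei per mouse. HNKO mouse 3 met the lowest WT mouse, and the difference of -10.5 percentage points did not pass (exact permutation test, two-sided, p = 0.2; 3 mice against 3 cannot go below 0.1).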

How the data were processed

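Nuclei of 3 HNKO and 3 WT livers were tagged with TotalSeq-A hashtags, 4250 sorted per mouse and pooled for 10x Genomics 3′ libraries. The authors made fastq files with Cell Ranger 5.0.1, mapped reads to GRCm38 with Alevin and clustered the nuclei after SCTransform normalisation in Seurat. The deposited matrices hold estimated counts, of which 10.1% of the nonzero values were not whole (tolerance 0.001), and the authors' SCTransform scores. The authors' deposited hashtag counts are whole numbers. Metadata gave each nucleus its mouse, genotype and cell type. The authors kept nuclei called hashtag singlets, which does not remove doublets within a mouse, and no doublet caller was run here.

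For each mouse, estimated counts of the nuclei of a cluster were added up and rounded. Genes kept by filterByExpr were tested with the edgeR 4.0.16 quasi-likelihood test (R 4.3.3), TMM factors, the mouse as a block, two-sided, with Benjamini-Hochberg adjustment over all 2015 genes at 0.05. The common biological coefficient of variation was 0.283. Fold changes are from that fit, Kupffer over CD45+ 1. CPM values are a sum's counts per 1000000 of its own UMIs without TMM. Bounds use a floor of 3 counts over the cluster with 0, and intervals are exact at 95% and cover counting error only. Alternatives used DESeq2 1.42.0 and limma 3.58.1.

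Both clusters come from the same animals, which is where the pairing comes from. Deviations of same-mouse sums from their cluster means correlated at 0.112, -0.132 and 0.0690 for HNKO mice 1, 2 and 3. Between different mice the correlations ran from -0.240 to 0.129, a range that holds the same-mouse values.

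The members and the gene lists were chosen with earlier results of these data known. Named are Nampt, members of the 20 lists that passed or that describe a list, and in each direction the 12 genes with the largest absolute fold change among those past the threshold, changed the same way in 3 mice and with at least 30 UMIs, without hepatocyte-list genes, gene models named Gm with digits or ending in Rik, and mitochondrial genes. Gene positions are from GENCODE M21 and promoters from RefSeq, both on GRCm38, where 15 of 16 resident Kupffer and 5 of 8 class II genes had a promoter entry. The method was tested on simulated data. The labels do not say that hashtags mark anything beyond the mouse, and RNA pools were not told apart.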

Additional observations from a re-analysis of the deposited data

How the results depend on the processing

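The 278 genes that passed became 263 with RLE size factors, 404 of 15191 with no filter on low counts, 291 with limma on SCTransform sums, 383 without the nuclei highest in hepatocyte UMIs, 167 with DESeq2, 157 with sums thinned to 36972 UMIs, 91 without nuclei with at least 2 endothelial UMIs, which left 4, 3 and 11 Kupffer nuclei in HNKO mice 1, 2 and 3, and 118 without nuclei whose own hashtag was not the highest, the last chosen after seeing the data. Fewer genes were tested in the last 3 of these (783, 454 and 1290). Genes higher in Kupffer numbered 88 with DESeq2, 78 thinned, 48 without endothelial UMIs and 63 by own hashtag, and genes higher in CD45+ 1 numbered 79, 79, 43 and 55, and 256 with no filter, which moved the median log2 fold change to -0.27 and the share of calls higher in Kupffer from 48.9% to 36.6%. Leaving out 1 mouse gave 24 to 312 genes, 12 to 157 higher in Kupffer and 12 to 155 higher in CD45+ 1. Without the mouse block the count was 245 (125 and 120), of which 239 were shared with the paired fit, and Ctsb alone of the named genes lost its call. In each alternative, every gene called with the block that was tested kept its direction.

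Of 56 named genes that passed, 17 passed under every alternative that tested them, Clec4f, Timd4, Cd163 and Runx2 among them. Of 599 values under alternatives 529 kept the call, 70 lost it with the same direction and 0 turned. Without HNKO mouse 3, 37 of these genes lost the call, and without HNKO mouse 1, 15, the cause of which was not tested. Cps1, a gene of the hepatocyte list that was not called, passed in 6 alternatives.

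With means over nuclei in place of medians, the Kupffer minus CD45+ 1 difference turned to 4.69 UMIs, 5.87 genes and -12.3 hashtag counts per nucleus, all within the spread of 3 mice. The HNKO minus WT difference in the Kupffer share ran from -14.3 to -7.20 points when 1 mouse was left out, and as a share of all nuclei it was 1.30 points higher in HNKO, with CD45+ 1 nuclei 2.25 points higher (exact permutation tests, p = 0.1 each, the smallest possible). An alternative that separated RNA pools was not run, because barcodes and metadata do not tell them apart. With 10 Kupffer nuclei in HNKO mouse 2, many genes of the lists had too few UMIs to be tested.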

Other observations

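The WT nuclei of the same clusters, which entered no test, were few: 16 Kupffer nuclei with 64975 UMIs and 14 CD45+ 1 nuclei with 48598 UMIs. They were clustered together with the HNKO nuclei, so they are not independent of the cluster labels. Clec4f had 49 UMIs in WT Kupffer and 0 in WT CD45+ 1 nuclei, Timd4 55 and 1, Vsig4 61 and 2, Cd5l 65 and 4 and Slc40a1 144 and 8. On the other side Inpp4b had 8 UMIs in WT Kupffer and 44 in WT CD45+ 1 nuclei, Rbpj 5 and 30, and H2-Aa 5 and 11. Runx2 had 3 and 57, of which 53 came from WT mouse 2. Of the genes that passed in HNKO mice and had at least 5 UMIs in WT nuclei, 131 of 135 higher in Kupffer had the higher CPM in WT Kupffer nuclei as well, and 126 of 138 higher in CD45+ 1 had the higher CPM in WT CD45+ 1 nuclei. These counts pool the WT mice, and the like share over all genes tested was not counted. Nampt had 14 UMIs in WT Kupffer and 3 in WT CD45+ 1 nuclei.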
